A study of Homo sapiens with 6 samples.

Results

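Total polyadenylated mRNA of the hepatocellular carcinoma line HCCLM3 was compared with that of the line MHCC97H, gene by gene. Genes listed with at least 1 RPKM (reads scaled by gene model length and library total) in either mRNA library were kept, which left 11715 of the 19089 genes of the series. The measure was the log2 ratio of HCCLM3 over MHCC97H after 0.1 RPKM was added to both values, so a positive ratio is higher in HCCLM3, and ratios of genes near 0.1 RPKM are understated. HCCLM3 and MHCC97H cells carried no stated treatment or engineered allele and were both grown in DMEM with 10% fetal bovine serum, penicillin, streptomycin and ciprofloxacin. The series also holds the line Hep3B, grown in MEM with 15% serum, and for each line a library of mRNA bound to ribosomes with a nascent chain (RNC-mRNA). These other libraries are used here only to set the same genes beside their other readouts. Each library was a pool of 3 cultures, so each line had 1 mRNA library, no p-value was computed, and genes are described by the size of their ratio.

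HCCLM3 was obtained from MHCC97H by selecting cells that had spread to the lungs of nude mice, so the lines share an origin, and both are used as models of metastatic liver cancer. Related tumour lines are known to diverge in single genes that are silent in a line and active in the other, and in long chromosome regions in which most genes shift by a small common amount. Cancer-testis genes, most of them on the X chromosome, and imprinted genes, active from a single parental copy, are classes known to depend on DNA methylation. Secreted plasma proteins are the classic product of hepatocytes.

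The gene tables held 119888529 reads for HCCLM3 mRNA and 132684373 for MHCC97H mRNA, and 141095635 and 144209109 for their RNC-mRNA. A gene of the comparison had a median of 3770 reads in HCCLM3 and 4256 in MHCC97H. Counting error alone set the 95% interval of a gene's log2 ratio at a median of 0.064 to either side. Such intervals are exact binomial intervals of the deposited counts. They are given in brackets for the ratio of the RPKM with nothing added, so the ratio as defined above can lie outside its own bracket where a gene is low, and they hold no variation between cultures or preparations. Of the defining hepatocyte products, ALB (serum albumin) was at 1.93 RPKM in HCCLM3 and 12.01 RPKM in MHCC97H, against 4164 RPKM in Hep3B, so neither metastatic line carried it at a hepatocyte level.

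The lines were close to each other. The median log2 ratio was -0.01 with quartiles at -0.17 and 0.13, and 11415 genes (97.4%) lay within 2-fold. Ratios of at least 4 were reached by 26 genes higher in HCCLM3, a share of 0.222% of those compared, and by 39 genes lower in HCCLM3, a share of 0.333%. At 2-fold the counts were 143 genes higher (1.22%) and 157 lower (1.34%). The 9641 genes with at least 1000 reads in both libraries had log2 ratios with an SD of 0.30.

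**Figure D1:**
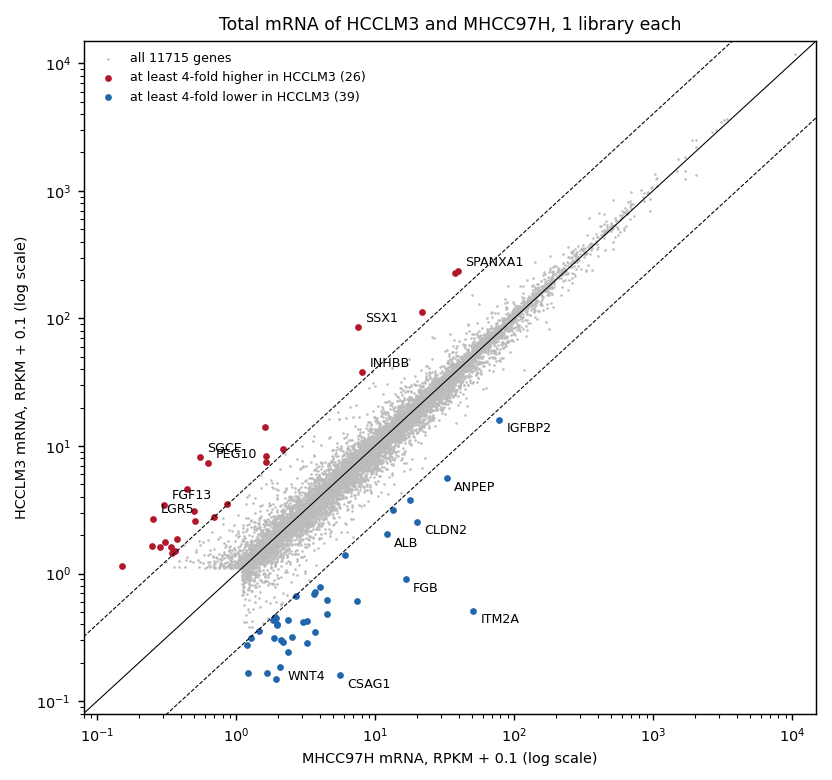
Each point is a gene of the comparison, with its RPKM plus 0.1 in HCCLM3 mRNA on the vertical and in MHCC97H mRNA on the horizontal log axis. The solid line marks equal levels and the dashed lines 4-fold differences. The 26 red genes lie above and the 39 blue genes below the dashed lines, with ITM2A farthest from the diagonal.

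The cancer-testis families set the lines apart most, and they did so in opposite directions. Most of these genes are normally transcribed in germ cells of the testis and are silent in adult liver. The list also took in SSX2IP of chromosome 1, at 1.52 RPKM in HCCLM3, 1.72 RPKM in MHCC97H and 1.56 RPKM in Hep3B mRNA. Of 99 listed names 85 had reads in the series and 21 entered the comparison, of which 8 were at least 4-fold higher and 6 at least 4-fold lower in HCCLM3, against shares of 0.222% and 0.333% over all genes. The list was drawn up with earlier results on SSX and GAGE genes known, so these counts describe the families and are no independent evidence. Summed over the list, the mRNA level was 730 RPKM in HCCLM3 and 186 RPKM in MHCC97H, against 36.8 RPKM in Hep3B. The largest parts of the Hep3B sum were PNMA3 at 10.7 RPKM and PNMA6C at 9.19 RPKM, listed genes of the paraneoplastic antigen family. Reads of near-identical family members may be shared among copies, and the sources used here do not state how such reads were counted, so values of single SSX, SPANX and GAGE members are uncertain.

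The SPANX genes, which encode proteins of the sperm nucleus, were the most abundant of the group. SPANXA1 was at 234 RPKM in HCCLM3 mRNA and 39.7 RPKM in MHCC97H mRNA, a log2 ratio of 2.56 [2.51, 2.61], and in RNC-mRNA at 289 and 58.2 RPKM. SPANXC was at 225 RPKM in HCCLM3 and 37.3 RPKM in MHCC97H, a log2 ratio of 2.59. Both lines therefore expressed these genes, while Hep3B mRNA held 0.0436 RPKM of SPANXA1 and 0.0195 RPKM of SPANXC. SPANXB2, at 113 RPKM in HCCLM3 and 21.6 RPKM in MHCC97H, and SPANXD, at 7.39 and 1.54 RPKM, had log2 ratios of 2.38 and 2.19. The promoters of SPANXC and SPANXA1 are shown because the genes follow each other in gene order and their windows are almost the same sequence, identical at 247 of 250 bases. These are the 250 bases before each annotated start (RefSeq, GRCh38.p14), at chrX:141242518-141242767, minus strand, and at chrX:141584739-141584988, minus strand, with CG dinucleotides, the sites of DNA methylation, in capitals.
SPANXC: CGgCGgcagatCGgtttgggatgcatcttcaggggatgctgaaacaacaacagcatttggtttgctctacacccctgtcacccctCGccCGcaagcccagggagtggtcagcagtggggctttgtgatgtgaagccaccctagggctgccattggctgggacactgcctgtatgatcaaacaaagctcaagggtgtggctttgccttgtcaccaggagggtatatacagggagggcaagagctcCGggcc
SPANXA1: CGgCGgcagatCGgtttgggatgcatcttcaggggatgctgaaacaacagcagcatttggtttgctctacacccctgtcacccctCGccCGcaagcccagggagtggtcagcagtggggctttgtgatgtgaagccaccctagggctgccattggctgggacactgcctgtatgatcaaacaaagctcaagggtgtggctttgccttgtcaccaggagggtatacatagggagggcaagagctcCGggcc
Each window held 6 CG, against a median of 11 (quartiles 3 and 23) over the 27305 promoter windows of the table, of which 93.6% held at least 1.

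SSX genes encode nuclear repressor proteins first found as fusion partners in synovial sarcoma. SSX1 was at 85.0 RPKM in HCCLM3 mRNA and 7.46 RPKM in MHCC97H mRNA, a log2 ratio of 3.49 [3.43, 3.59], and at 113 and 9.80 RPKM in RNC-mRNA. SSX6 was at 13.9 RPKM in HCCLM3 and 1.51 RPKM in MHCC97H, and SSX9, the direct neighbour of SSX1, at 4.52 and 0.347 RPKM. SSX2 was at 1.35 RPKM in HCCLM3 and 0.248 RPKM in MHCC97H. The 4 genes lay 4-fold or more apart in the same direction, and SSX5, at 1.02 and 0.258 RPKM, stayed inside that bound with a log2 ratio of 1.64.

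In the other direction, HCCLM3 held little of the GAGE genes and of the pair CSAG1 and MAGEA12. GAGE12J was at 0.512 RPKM in HCCLM3 mRNA and 7.26 RPKM in MHCC97H mRNA, GAGE10 at 0.386 and 4.39 RPKM, and GAGE12I at 0.252 and 3.60 RPKM. Their log2 ratios were -3.59, -3.21 and -3.39, and in RNC-mRNA -3.43, -3.64 and -3.61. CSAG1, a cancer-testis gene first described in chondrosarcoma, had 8 reads in HCCLM3 and 820 reads in MHCC97H, or 0.0594 and 5.54 RPKM, a log2 ratio of -5.14 [-7.76, -5.56]. MAGEA12, which encodes a tumour antigen of the MAGE-A family, was at 0.590 RPKM in HCCLM3 and 3.54 RPKM in MHCC97H, a log2 ratio of -2.40 [-2.85, -2.33]. CSAG1 and MAGEA12 are direct neighbours on opposite strands, and their promoter windows, at chrX:152733722-152733971, minus strand, and chrX:152733507-152733756, plus strand, share 35 bases, which is why both are shown, again with CG in capitals.
CSAG1: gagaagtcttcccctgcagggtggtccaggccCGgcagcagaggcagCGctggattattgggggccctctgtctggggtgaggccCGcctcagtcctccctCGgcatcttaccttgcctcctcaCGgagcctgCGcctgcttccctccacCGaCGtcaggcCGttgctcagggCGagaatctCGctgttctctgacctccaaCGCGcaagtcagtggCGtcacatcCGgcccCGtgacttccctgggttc
MAGEA12: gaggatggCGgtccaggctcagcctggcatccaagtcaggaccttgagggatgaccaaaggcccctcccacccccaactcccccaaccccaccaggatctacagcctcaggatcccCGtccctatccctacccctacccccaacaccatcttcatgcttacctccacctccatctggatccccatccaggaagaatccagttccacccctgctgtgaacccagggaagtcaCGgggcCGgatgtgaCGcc
CSAG1 held 16 CG and MAGEA12 held 5. Other MAGE genes differed less or in both directions. MAGEA3 was at 11.9 RPKM in HCCLM3 and 12.6 RPKM in MHCC97H, and MAGEA6 at 19.5 and 22.4 RPKM. MAGEC2 was at 0.920 RPKM in HCCLM3 and 3.03 RPKM in MHCC97H, whereas MAGEC1 stood at 1.03 and 0.444 RPKM, at least 2-fold apart in opposite directions. PNMA6C, a gene of the paraneoplastic antigen family, was at 0.143 RPKM in HCCLM3 and 2.26 RPKM in MHCC97H, against 9.19 RPKM in Hep3B.

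ITM2A had the lowest ratio of all genes compared. It encodes a membrane protein with a BRICHOS domain, known from cartilage and T cells, and lies on the X chromosome. It had 91 reads in HCCLM3 mRNA and 12371 reads in MHCC97H mRNA, or 0.412 and 51.0 RPKM, a log2 ratio of -6.64 [-7.26, -6.65]. In RNC-mRNA it was at 0.367 RPKM in HCCLM3 and 94.6 RPKM in MHCC97H, a log2 ratio of -7.66, and in Hep3B mRNA at 0.00444 RPKM. Of the 3 lines MHCC97H was the one with ITM2A above 1 RPKM. Its promoter window at chrX:79367335-79367584, minus strand, is shown because no other gene of the comparison differed as much, and it held 11 CG, the median of the table.
ITM2A: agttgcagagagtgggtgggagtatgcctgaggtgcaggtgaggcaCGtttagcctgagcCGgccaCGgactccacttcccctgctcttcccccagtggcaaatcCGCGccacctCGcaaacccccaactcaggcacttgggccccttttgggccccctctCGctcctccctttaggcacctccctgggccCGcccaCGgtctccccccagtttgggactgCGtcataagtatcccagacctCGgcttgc

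SGCE and PEG10 led the genes higher in HCCLM3. They are head-to-head neighbours on chromosome 7 known to be imprinted and transcribed from the paternal copy, SGCE encoding epsilon-sarcoglycan and PEG10 a protein derived from a retrotransposon. SGCE was at 8.09 RPKM in HCCLM3 mRNA and 0.449 RPKM in MHCC97H mRNA, a log2 ratio of 3.90 [3.90, 4.45]. PEG10 was at 7.20 RPKM in HCCLM3 and 0.529 RPKM in MHCC97H, a log2 ratio of 3.54 [3.63, 3.90]. In RNC-mRNA SGCE stood at 10.3 and 0.614 RPKM and PEG10 at 8.08 and 0.482 RPKM, and Hep3B mRNA held 15.4 RPKM of SGCE and 82.4 RPKM of PEG10. Of the 3 lines MHCC97H held the least of both. Nearby imprinted genes did not all follow, as PPP1R9A was at 0.831 RPKM in HCCLM3 and 1.15 RPKM in MHCC97H and PON2 at 89.3 and 82.9 RPKM. TFPI2, an inhibitor of serine proteases close to the pair, was at 2.63 RPKM in HCCLM3 and 0.708 RPKM in MHCC97H, a log2 ratio of 1.76. Of the 22 imprinted genes compared, 2 were at least 4-fold and 4 at least 2-fold higher, against 0.222% and 1.22% of all genes, and 0 were at least 2-fold lower, against 1.34%. The list median was 0.12. The other member past 2-fold was CDKN1C, the cell cycle inhibitor p57, at 19.998 RPKM in HCCLM3 and 6.56 RPKM in MHCC97H.

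Genes of the WNT pathway, which controls liver zonation and is often mutated in liver cancer, differed at its receptors, inhibitors and ligands without a common direction. LGR5, a receptor for R-spondins and a stem cell marker, was at 2.60 RPKM in HCCLM3 and 0.153 RPKM in MHCC97H, a log2 ratio of 3.41 [3.79, 4.39], and at 9.78 RPKM in Hep3B. Its relative LGR4 was at 4.23 RPKM in HCCLM3 and 9.23 RPKM in MHCC97H, a log2 ratio of -1.11. NKD1, a cytoplasmic inhibitor induced by the pathway, was at 6.49 RPKM in HCCLM3 and 1.97 RPKM in MHCC97H, and NKD2 at 0.500 and 1.26 RPKM. NOTUM, a secreted enzyme that inactivates WNT ligands and was not on the list, was at 8.21 RPKM in HCCLM3 and 1.53 RPKM in MHCC97H, a log2 ratio of 2.35, and AXIN2, another feedback inhibitor, at 30.04 and 20.6 RPKM, a ratio inside 2-fold. The ligand WNT4 was at 0.0846 RPKM in HCCLM3 and 1.98 RPKM in MHCC97H, a log2 ratio of -3.50 [-5.48, -3.76]. Of 27 list members compared, 2 were at least 2-fold higher and 3 at least 2-fold lower, against 1.22% and 1.34% of all genes, with a list median of -0.09 (mRNA) and 0.08 (RNC-mRNA).

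Other genes at least 4-fold higher in HCCLM3 had varied roles. FGF13, an intracellular member of the fibroblast growth factor family that binds sodium channels, was at 3.36 RPKM in HCCLM3 and 0.204 RPKM in MHCC97H, and at 5.68 and 0.285 RPKM in RNC-mRNA. INHBB, a subunit of activin and inhibin, was at 37.8 RPKM in HCCLM3 and 7.97 RPKM in MHCC97H, a log2 ratio of 2.23 [2.19, 2.30]. KISS1, whose peptide product is known as a metastasis suppressor in melanoma, was at 2.996 RPKM in HCCLM3 and 0.395 RPKM in MHCC97H. In RNC-mRNA INHBB was at 36.6 RPKM in HCCLM3 and 6.39 RPKM in MHCC97H, and KISS1 at 4.38 and 0.459 RPKM. NKAIN3 was at 1.77 RPKM in HCCLM3 mRNA and 0.278 RPKM in MHCC97H mRNA. ACSS3, a mitochondrial acyl-CoA synthetase, was at 1.04 and 0.0525 RPKM in HCCLM3 and MHCC97H, PPP2R2B, a regulatory subunit of protein phosphatase 2A, at 1.56 and 0.147 RPKM, and GPR161, a receptor that restrains hedgehog signalling, at 1.66 and 0.207 RPKM. The collagen gene COL3A1 was at 2.49 RPKM in HCCLM3 and 0.408 RPKM in MHCC97H mRNA but at 0.424 and 0.117 RPKM in RNC-mRNA, so its level among ribosome-bound mRNA was low in both lines.

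Genes at least 4-fold lower in HCCLM3 included several products of liver and gut epithelium. FGB and FGG encode the beta and gamma chains of fibrinogen and are separated by a single gene in gene order. FGB was at 0.803 RPKM in HCCLM3 and 16.5 RPKM in MHCC97H, a log2 ratio of -4.20 [-4.57, -4.16], and FGG at 0.205 and 2.02 RPKM, a log2 ratio of -2.80. FGA, the gene between them that encodes the alpha chain, was at 1.07 RPKM in HCCLM3 and 3.69 RPKM in MHCC97H, so all 3 chains were lower by at least 2-fold. CLDN2, which forms pores in tight junctions, was at 2.45 RPKM in HCCLM3 and 19.9 RPKM in MHCC97H, a log2 ratio of -2.97 [-3.12, -2.93]. ANPEP, the canalicular aminopeptidase N, was at 5.48 and 32.9 RPKM, and CEACAM5, the carcinoembryonic antigen, at 3.68 and 17.7 RPKM. IGFBP2, a secreted binding protein for insulin-like growth factors, was the most abundant of these at 15.97 RPKM in HCCLM3 and 78.0 RPKM in MHCC97H, a log2 ratio of -2.28 [-2.32, -2.26]. Also lower were the drug-metabolising enzyme CYP2B6 at 0.690 RPKM in HCCLM3 and 3.89 RPKM in MHCC97H, the adhesion receptor GPR126 at 0.0657 and 1.57 RPKM, and SULF2, which trims heparan sulfate, at 3.05 and 13.5 RPKM. The neighbours TMEM176A and TMEM176B, which encode related membrane proteins, were at 0.220 and 0.323 RPKM in HCCLM3 and 2.44 and 3.17 RPKM in MHCC97H. The cystatin neighbours CST1 and CST4, cysteine protease inhibitors of close sequence and so uncertain as single genes, were at 0.516 and 0.215 RPKM in HCCLM3 and 4.39 and 1.77 RPKM in MHCC97H. FAM131B, MUC5B, PCDH1 and ADAMTS10 were at 0.0499, 0.187, 0.194 and 0.317 RPKM in HCCLM3 and 1.85, 3.12, 2.09 and 2.95 RPKM in MHCC97H. LGALS2, a galectin, rested on 5 reads in HCCLM3 and 95 reads in MHCC97H, the least support of the group.

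Position, which the choice by ratio had not used, was uneven among the 65 genes. By matched symbol, 10 of the 26 higher and 7 of the 39 lower genes lay on the X chromosome, 26.2% of the 65. That chromosome held 3.40% of the placed genes compared. CDR1, AC002321.2 and GAGE12I had no assigned chromosome, so the X counts are lower bounds. Of the 17 assigned to X, 13 are cancer-testis genes described above, some of which may share reads. The other 4 were FGF13, MAP7D2, CLDN2 and ITM2A. In addition, 14 of the 65 were next to another of the same direction in the order of placed genes. Members of the 65 without a place in that order could not enter this count. Of the 11244 other placed genes compared, 62 (0.551%) lay next to any of the 65. The 14 genes formed 7 pairs: SGCE with PEG10, SSX1 with SSX9, SPANXC with SPANXA1, GAGE10 with GAGE12J, CSAG1 with MAGEA12, TMEM176A with TMEM176B and CST1 with CST4. The SSX, SPANX, GAGE, TMEM176 and CST pairs are related genes. DNA methylation was not measured in these libraries.

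The RNC-mRNA libraries gave the same direction for all 65 genes. There 37 genes were at least 4-fold higher (0.325% of 11383) and 42 at least 4-fold lower (0.369%). Of the 65, all were at least 2-fold apart in RNC-mRNA, and 56 at least 4-fold, 23 of the 26 higher and 33 of the 39 lower. The higher genes' RNC-mRNA log2 ratios ran between 1.04 (MAP7D2) and 3.91 (FGF13), and the lower genes' between -7.66 (ITM2A) and -1.57 (ZNF467). At 2-fold RNC-mRNA had 157 genes higher (1.38%) and 179 lower (1.57%), or 2.95% either way. Of the genes past 2-fold in mRNA, 105 of 143 higher and 131 of 157 lower were past 2-fold in RNC-mRNA the same way, and 0 the opposite way. Whether both fractions came from the same cultures is not stated, so RNC-mRNA is a second readout and not a biological replicate. In Hep3B mRNA 12 of the 26 and 13 of the 39 genes were under 0.1 RPKM and 11 and 14 were at 1 RPKM or more. Over the whole series, without the filter on HCCLM3 and MHCC97H, 11742 of 19089 genes were at 1 RPKM or more in Hep3B mRNA. Hep3B mRNA was above both lines in 8 of the 26 and 9 of the 39 genes. The shares of all compared genes at these Hep3B levels were not computed, so the Hep3B counts only describe the 65 genes. The likeness of Hep3B to either line was not tested.

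**Figure D2:**
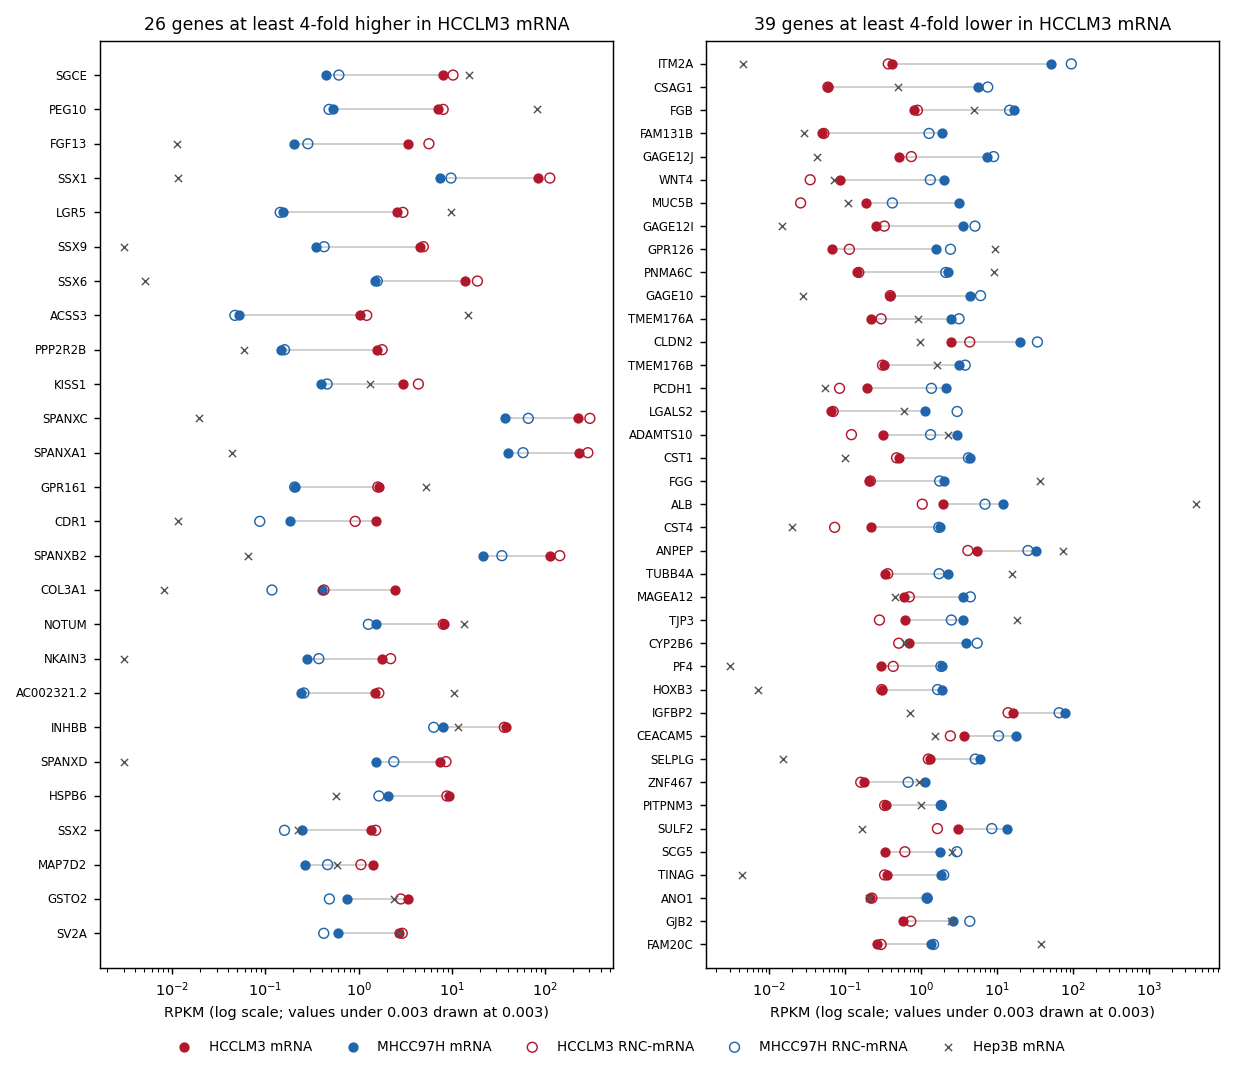
RPKM on a log axis of the 26 genes at least 4-fold higher (left) and the 39 at least 4-fold lower (right) in HCCLM3 mRNA, ordered by ratio. Filled points are mRNA and open points RNC-mRNA of HCCLM3 (red) and MHCC97H (blue), and crosses are Hep3B mRNA. Open points lie beside the filled points of their line for most genes, with COL3A1 and MUC5B among those displaced to the left.

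Beyond single genes, the lines differed over long stretches of chromosomes. Genes of the comparison with a place in the RefSeq annotation were taken in gene order and split into 450 runs of 25 neighbours. Neighbouring runs whose median log2 ratio was at least 0.25 away from 0 in the same direction were joined, a bound chosen after the values were seen. This gave 5 blocks with 45 runs and 1124 of 11314 placed genes (9.93%). Outside the blocks the median was -0.00034 over 10190 genes, 50.1% of them below 0, and 366 of 405 runs lay within 0.1 of 0. The other runs there reached medians between -0.25 and 0.22, some of them consecutive, so smaller shifts lay outside the blocks as well. Because a run's median averages 25 genes, a shift too small to notice in a single gene stood out. No DNA was measured in these libraries.

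**Figure D3:**
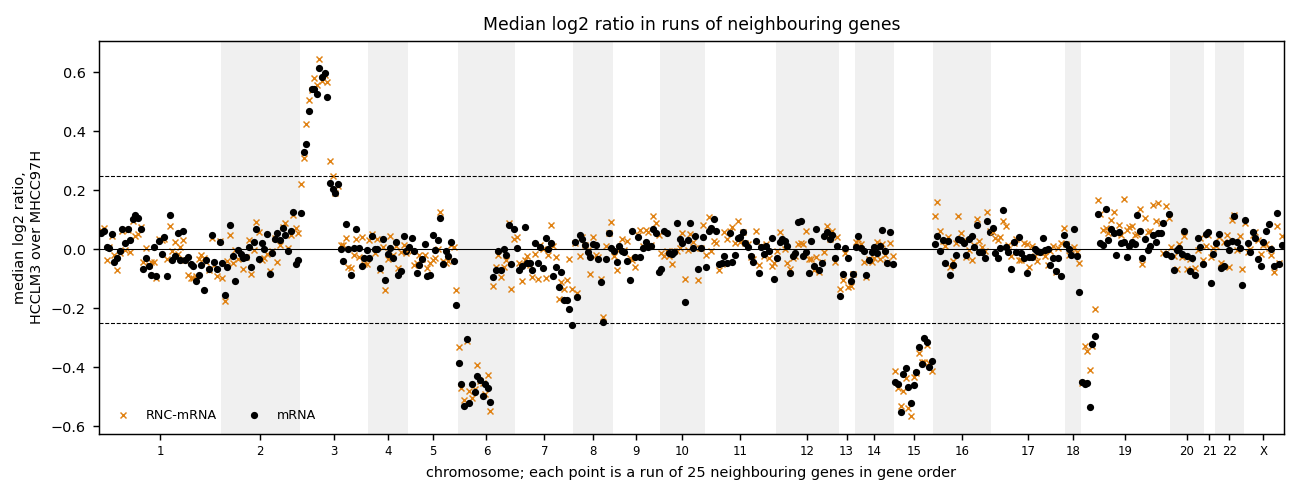
Median log2 ratio of HCCLM3 over MHCC97H in each run of 25 neighbouring genes, in gene order along chromosomes 1 to 22 and X, for mRNA (black) and RNC-mRNA (orange crosses). Dashed lines mark 0.25 and -0.25. Chromosome 3 holds the raised block, with run medians up to 0.62, and chromosomes 6, 15 and 19 hold lowered blocks.

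On chromosome 3, the 250 genes between IL17RC and ARHGEF3 were higher in HCCLM3 nearly without exception. Their median log2 ratio was 0.52 in mRNA, a ratio of 1.44, and 0.53 in RNC-mRNA, and 247 of 250 (98.8%) were above 0 in mRNA and 245 (98%) in RNC-mRNA. The median of each of the 10 runs lay between 0.33 and 0.62, while 8 genes passed 2-fold. Smaller shifts of the same direction lay beyond both ends. The run before the block, TRNT1 to IL17RE, had a median of 0.12 (0.22 in RNC-mRNA), and the next 4 runs, APPL1 to POGLUT1, had medians between 0.19 and 0.22 (0.19 and 0.30 in RNC-mRNA). The run after these, TIMMDC1 to PDIA5, was at 0.00051. The most abundant were the ribosomal protein genes RPL14, at 654 RPKM in HCCLM3 and 446 RPKM in MHCC97H, and RPL29, at 668 and 407 RPKM. RHOA, the small GTPase of the actin cytoskeleton, was at 206 RPKM in HCCLM3 and 137 RPKM in MHCC97H, and CTNNB1, which encodes beta-catenin, at 92.4 and 53.7 RPKM. Farthest with the block was CHDH, a choline dehydrogenase of mitochondria, at 3.90 RPKM in HCCLM3 and 1.09 RPKM in MHCC97H, and against it CDCP1, a membrane protein phosphorylated by Src kinases, at 0.759 and 1.44 RPKM. Genes of the blocks were picked by abundance and by ratio after the values were seen.

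On chromosome 6, the block ran from DUSP22 to ELOVL5 and took in the histone and HLA gene clusters. Its 325 genes had a median log2 ratio of -0.47 in mRNA, a ratio of 0.723, and -0.46 in RNC-mRNA, with 295 (90.8%) below 0 in mRNA and 299 (92.0%) in RNC-mRNA. The next run, from GCLC to MYO6, had a median of -0.09, so the shift ended near ELOVL5. HMGA1, a chromatin protein of embryonic and tumour cells, was at 492 RPKM in HCCLM3 and 623 RPKM in MHCC97H, and TUBB, a beta-tubulin, at 431 and 536 RPKM. KCNK5, a potassium channel, lay farthest with the block at 4.12 RPKM in HCCLM3 and 12.3 RPKM in MHCC97H. TUBB2B, another beta-tubulin, went against it at 28.3 RPKM in HCCLM3 and 8.95 RPKM in MHCC97H, a log2 ratio of 1.65 that was 1.82 in RNC-mRNA.

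The block of chromosome 15 covered all of its placed genes, from GOLGA6L6 to TARSL2. The 374 genes had a median log2 ratio of -0.42 in mRNA, a ratio of 0.749, and -0.43 in RNC-mRNA, with 346 (92.5%) and 345 (92.2%) below 0. All 15 runs lay between -0.55 and -0.30. PKM, the pyruvate kinase of proliferating cells, was at 1431 RPKM in HCCLM3 and 1707 RPKM in MHCC97H, and ANXA2, a membrane-binding annexin, at 512 and 617 RPKM. THBS1, which encodes the matrix protein thrombospondin-1, went against the block at 48.0 RPKM in HCCLM3 and 17.3 RPKM in MHCC97H, a log2 ratio of 1.46. ANPEP and SCG5, 4-fold lower genes named among the 65, lie in this block and exceeded its shift several times over.

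On chromosome 19, the first 150 placed genes, PPAP2C to CAMSAP3, had a median of -0.44 in mRNA and -0.35 in RNC-mRNA, with 132 (88.0%) and 133 (88.7%) below 0. The next run, XAB2 to ZNF266, had a median of 0.12. EEF2, the translocating elongation factor of translation, was at 699 RPKM in HCCLM3 and 955 RPKM in MHCC97H, and BSG, which encodes the surface protein basigin, at 239 and 364 RPKM. FSTL3, a follistatin-like antagonist of activin, went the other way at 31.5 RPKM in HCCLM3 and 15.3 RPKM in MHCC97H. The fifth block was a single run on chromosome 7, FASTK to NCAPG2, just inside the bound with a median of -0.26 in mRNA and -0.14 in RNC-mRNA. The 3 runs before it, TSGA13 to SLC4A2, were lowered as well, with medians of -0.17, -0.17 and -0.20, but in RNC-mRNA these stood at -0.13, -0.10 and -0.03. Just outside it was a run of chromosome 8, TRPS1 to TATDN1, with -0.25 and -0.23. Of the 65 genes past 4-fold, 0 of the 26 higher and 4 of the 39 lower lay in a block, against 9.93% of all placed genes.

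**Figure D4:**
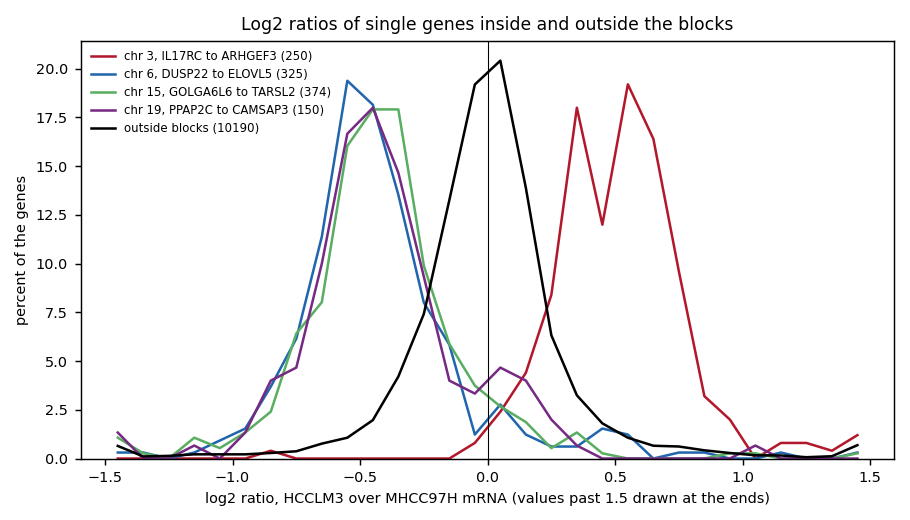
Percent of genes per log2 ratio bin of 0.1 (HCCLM3 over MHCC97H mRNA) in the 4 blocks of more than a single run and outside all blocks. The outside genes centre on 0, the 250 genes of the chromosome 3 block lie to the right around 0.52, and the other 3 blocks lie to the left between -0.42 and -0.47.

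In some gene groups members inside these blocks lay apart from the rest. Antigen presentation genes, which load peptides on HLA class I for T cells, had a median of -0.39 in mRNA and -0.43 in RNC-mRNA over 20 genes, and 13 of the 20 lie in a block. HLA-B was at 7.68 RPKM in HCCLM3 and 15.3 RPKM in MHCC97H, and HLA-C at 43.2 and 71.4 RPKM, both on chromosome 6. Their log2 ratios of -0.98 and -0.72 lay below the first quartile of that block, -0.59. PSMB8 and PSMB9 of the same block were not lowered, at 0.04 and 0.13. B2M, the shared light chain of class I, lies in the chromosome 15 block and was at 87.0 RPKM in HCCLM3 and 122 RPKM in MHCC97H. The 7 members outside blocks had a median of 0.09, though NLRC5, the transactivator of class I genes on chromosome 16, was at 0.321 RPKM in HCCLM3 and 1.04 RPKM in MHCC97H.

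Among ribosomal protein and proliferation genes, the 4 members farthest from 0 all lay in blocks. Of 78 cytosolic ribosomal protein genes 0 passed 2-fold, 64 lay above 0, and the median was 0.10 against -0.01 for all genes, of which 48.0% lay above 0. In RNC-mRNA 49 of the 78 lay above 0, with a median of 0.05. These members were RPL29, RPL15, RPSA and RPL14, all of the chromosome 3 block, with log2 ratios of 0.72, 0.69, 0.69 and 0.55. Proliferation genes had a median of -0.04 over 38 members with 0 past 2-fold, and their farthest members were the mitotic genes NUSAP1, BUB1B, KIF23 and CCNB2 of the chromosome 15 block, at -0.52, -0.47, -0.45 and -0.40. Nuclear-encoded respiratory chain genes had a median of 0.10, with 56 of 76 above 0, but of 0.02 with 47 above 0 in RNC-mRNA, with UQCRC1 of chromosome 3 at 109 RPKM in HCCLM3 and 73.3 RPKM in MHCC97H, and NDUFS7 of chromosome 19 at 19.95 and 31.2 RPKM. Of 31 proteasome genes 27 lay above 0 in mRNA (median 0.09) and 18 in RNC-mRNA (median 0.003).

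The replication-dependent histones went against their block. Of 19 genes compared, 18 were higher in HCCLM3, against 48.0% of all genes, with a median of 0.43 in mRNA and 0.25 in RNC-mRNA. Yet 12 of the 19 lie in the lowered block of chromosome 6. HIST1H2BK was at 52.0 RPKM in HCCLM3 and 38.4 RPKM in MHCC97H, HIST1H4H at 6.69 and 2.91 RPKM, and HIST2H2BE of chromosome 1 at 3.90 and 2.43 RPKM. Their mRNA normally ends without a poly(A) tail, so libraries of polyadenylated RNA cover a part of it, and many of these genes are near copies of each other.

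**Figure D5:**
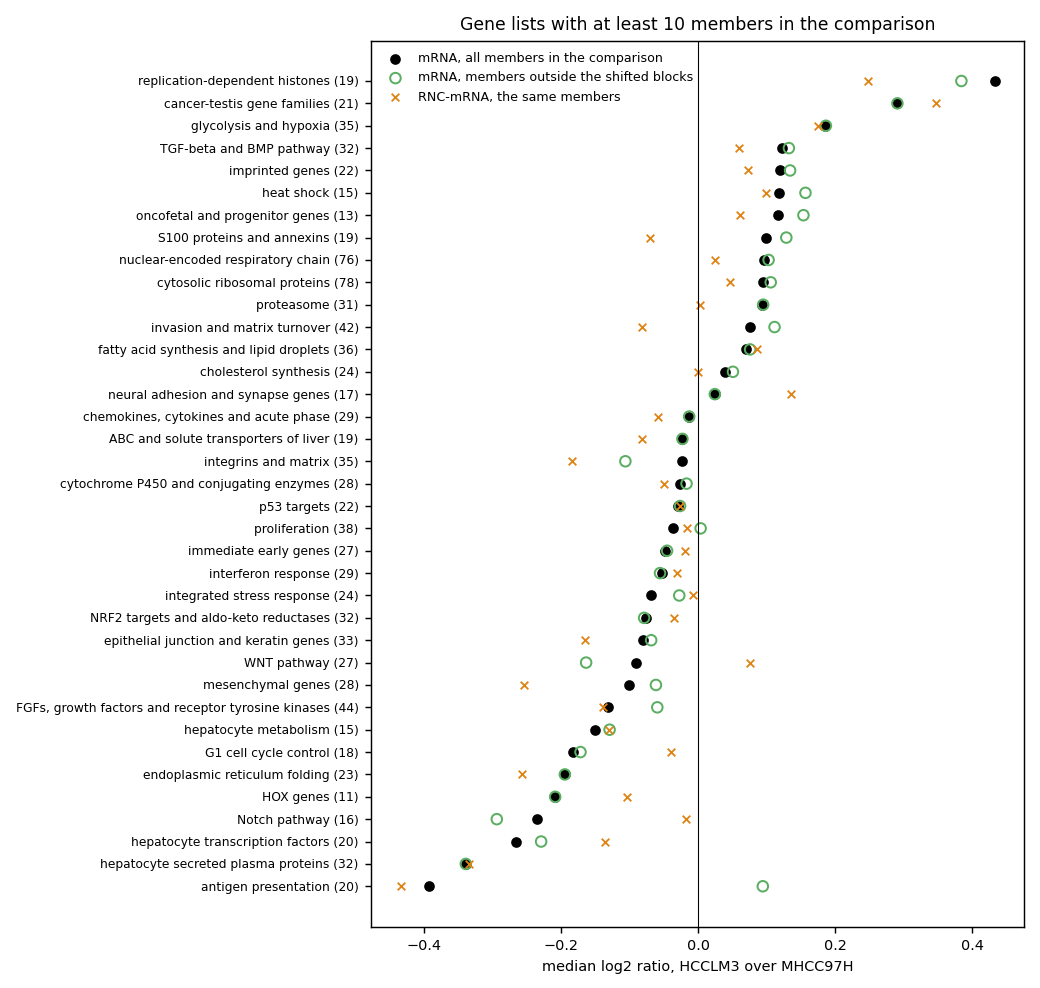
Median log2 ratio of HCCLM3 over MHCC97H for the gene lists with at least 10 members in the comparison (number in brackets): all members in mRNA (black), members outside the shifted blocks (green circles) and the same members in RNC-mRNA (crosses). Antigen presentation is lowest at -0.39 and is at 0.09 outside the blocks, while plasma proteins stay at -0.34.

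Among hepatocyte genes, plasma proteins and transcription factors had median log2 ratios of -0.34 and -0.27 in mRNA. Transporters and cytochrome P450 genes had medians near 0. Of 66 listed plasma proteins 32 entered the comparison, of which 3 were at least 2-fold higher and 8 at least 2-fold lower, against 1.22% and 1.34% of all genes, with a median of -0.34 both with and without members in blocks. In this bulk RNA, fewer cells with a transcript and less of it per cell cannot be told apart. APOC1 and RBP4, an apolipoprotein and the carrier of retinol, went the other way, at 71.3 and 11.8 RPKM in HCCLM3 and 25.8 and 3.57 RPKM in MHCC97H. SERPINA1, which encodes alpha-1 antitrypsin, was at 0.309 RPKM in HCCLM3 and 1.46 RPKM in MHCC97H, and the summed list was nearly level, 254 RPKM in HCCLM3 and 267 RPKM in MHCC97H. Of 20 hepatocyte transcription factors 13 lay below 0 in mRNA (median -0.27), against 52.0% of all genes. In RNC-mRNA their median had the same sign but was smaller in size. FOXA1, a pioneer factor of liver development, was at 6.46 RPKM in HCCLM3 and 17.6 RPKM in MHCC97H, past 2-fold. NR1H4, the bile acid receptor, was past 2-fold as well at 0.934 and 2.22 RPKM. PROX1 and TBX3 went the other way, with log2 ratios of 0.80 and 0.76 in mRNA and both 1.28 in RNC-mRNA. Hepatocyte metabolism genes had 3 of 15 past 2-fold lower (median -0.15), led by ASS1 of the urea cycle at 0.484 RPKM in HCCLM3 and 2.05 RPKM in MHCC97H, and cytochrome P450 and conjugating enzymes 4 of 28 (median -0.03). Oncofetal and progenitor genes had a median of 0.12 over 13 members. Transporters of liver had a median of -0.02 over 19 members, with ABCB4, the canalicular phospholipid exporter, at 1.31 RPKM in HCCLM3 and 0.493 RPKM in MHCC97H.

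Genes of glycolysis and the hypoxia response were mostly higher in HCCLM3. Of 35 genes 26 lay above 0, against 48.0% of all genes, 4 were at least 2-fold higher and 0 at least 2-fold lower, against 1.22% and 1.34%, with a median of 0.19 in mRNA and 0.17 in RNC-mRNA. CA9, a carbonic anhydrase induced by hypoxia, was at 30.8 RPKM in HCCLM3 and 9.57 RPKM in MHCC97H, a log2 ratio of 1.68 that was 0.90 in RNC-mRNA. NDRG1, another hypoxia-induced gene, was at 129 RPKM in HCCLM3 and 55.7 RPKM in MHCC97H. ENO2, an enolase of neurons and tumours, was at 43.4 and 16.02 RPKM. PFKFB4, a regulator of glycolytic flux that lies in the raised block of chromosome 3, was at 7.52 and 2.90 RPKM. Not all hypoxia genes followed: VEGFA, the endothelial growth factor, was at 5.50 RPKM in HCCLM3 and 8.02 RPKM in MHCC97H, and CA12 at 46.6 and 79.3 RPKM, both in lowered blocks.

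Adhesion, matrix and invasion genes had list medians near 0, with single members past 2-fold. The shares of all genes past 2-fold, 1.22% higher and 1.34% lower, stand beside the counts that follow. Of 42 invasion and matrix turnover genes 0 were at least 2-fold higher and 1 at least 2-fold lower, ADAM19, a membrane protease, at 0.470 RPKM in HCCLM3 and 2.003 RPKM in MHCC97H, and the list median was 0.08 (mRNA) and -0.08 (RNC-mRNA). LAMB3, a laminin chain, was at 26.2 RPKM in HCCLM3 and 15.2 RPKM in MHCC97H mRNA, but its log2 ratio was -0.28 in RNC-mRNA. Of 35 integrin and matrix genes 3 were at least 2-fold higher and 4 lower (median -0.02). The collagen-binding integrin chains ITGA11, ITGA1 and ITGA10 were at 0.797, 0.608 and 0.491 RPKM in HCCLM3 and at 3.23, 2.09 and 1.65 RPKM in MHCC97H. COL6A3, a chain of collagen VI, was at 8.49 RPKM in HCCLM3 and 2.14 RPKM in MHCC97H, and LOX, which crosslinks collagen, at 1.26 and 0.347 RPKM, within a mesenchymal list of median -0.10. Epithelial junction and keratin genes had a median of -0.08, with 3 of 33 past 2-fold lower. Besides CLDN2 these were the tight junction scaffold genes TJP3, at 0.613 RPKM in HCCLM3 and 3.58 RPKM in MHCC97H, and CGN, at 6.24 and 16.2 RPKM. S100 proteins and annexins had a median of 0.10 in mRNA, but most compared members lay below 0 in RNC-mRNA. S100A2, a calcium-binding protein, was at 69.6 RPKM in HCCLM3 and 26.5 RPKM in MHCC97H. Its log2 ratio was 1.39 in mRNA and 0.71 in RNC-mRNA.

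Signalling lists had medians between -0.23 and 0.12. Their counts past 2-fold stand against the same 1.22% and 1.34% of all genes. TGF-beta and BMP genes had a median of 0.12 over 32 members, with INHBB and its antagonist FSTL3 past 2-fold higher and 0 past 2-fold lower. Growth factors and receptor tyrosine kinases had 4 of 44 past 2-fold higher and 3 lower (median -0.13), among them NRG1, a ligand of ERBB receptors, at 10.8 RPKM in HCCLM3 and 3.51 RPKM in MHCC97H, and IGFBP6, a binding protein for IGF2, at 151 and 49.9 RPKM. Of 16 Notch genes 13 lay below 0 (median -0.23, but -0.02 in RNC-mRNA), against 52.0% of all genes. The receptor NOTCH1 was at 3.27 RPKM in HCCLM3 and 6.21 RPKM in MHCC97H and the target NRARP at 2.30 and 4.86 RPKM. The target HEY1 went the other way at 12.7 RPKM in HCCLM3 and 7.73 RPKM in MHCC97H, a log2 ratio of 0.71 that was 1.22 in RNC-mRNA. HOX genes had a median of -0.21 over 11 members, with HOXB3 at 0.300 RPKM in HCCLM3 and 1.88 RPKM in MHCC97H. G1 cell cycle genes had a median of -0.18 and p53 targets -0.03, with PHLDA3, a p53-induced repressor of AKT, at 0.478 RPKM in HCCLM3 and 2.004 RPKM in MHCC97H. Interferon genes had a median of -0.05, with OAS2, an antiviral nucleotide synthetase, at 4.56 RPKM in HCCLM3 and 1.75 RPKM in MHCC97H, and chemokines, cytokines and acute phase genes -0.01 with 0 past 2-fold higher and 1 lower. Immediate early genes had a median of -0.05 with 0 of 27 past 2-fold, and neural adhesion and synapse genes 0.02.

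Among stress and metabolic lists single genes also stood out more than medians. Integrated stress response genes had a median of -0.07, with NUPR1, a stress-induced chromatin protein, at 17.3 RPKM in HCCLM3 and 44.5 RPKM in MHCC97H, and PHGDH, which opens serine synthesis, at 11.5 and 4.58 RPKM. Endoplasmic reticulum folding genes had a median of -0.19 and heat shock genes 0.12, with HSPB6, a small heat shock protein, at 9.38 RPKM in HCCLM3 and 2.08 RPKM in MHCC97H. NRF2 targets and aldo-keto reductases had a median of -0.08, with AKR1B10, a reductase often raised in liver cancer, at 1319 RPKM in HCCLM3 and 2037 RPKM in MHCC97H. Cholesterol synthesis genes had a median of 0.04 with 0 of 24 past 2-fold, and fatty acid and lipid droplet genes 0.07, with the fatty acid carrier FABP3 at 3.44 RPKM in HCCLM3 and 1.07 RPKM in MHCC97H. Of the metallothionein list 4 genes were compared (median 0.39), with MT1X at 1.02 RPKM in HCCLM3 and 0.288 RPKM in MHCC97H.

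Among the 654 genes at 100 RPKM or more in a library, 5 were at least 2-fold higher and 2 at least 2-fold lower in HCCLM3. Of all genes compared, 1.22% were at least 2-fold higher and 1.34% at least 2-fold lower. The higher ones were SPANXA1, SPANXC, SPANXB2, IGFBP6 and NDRG1. The lower ones were EEF1A2, a tissue-restricted translation elongation factor, at 39.0 RPKM in HCCLM3 and 118 RPKM in MHCC97H, a log2 ratio of -1.60 [-1.63, -1.57], and LGALS4, a galectin of gut epithelium, at 83.2 and 180 RPKM, a log2 ratio of -1.11. SNCG, which encodes gamma-synuclein, was at 94.1 RPKM in HCCLM3 and 170 RPKM in MHCC97H, inside 2-fold.

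Most markers of other cell types were under 1 RPKM in both lines, and those above it went in both directions. Of 12 stellate cell and fibroblast markers 2 entered the comparison, COL3A1 and LUM, and the summed list was 6.39 RPKM in HCCLM3 and 4.23 RPKM in MHCC97H. Of 12 endothelial markers 4 did, with PECAM1 at 2.59 RPKM in HCCLM3 and 6.83 RPKM in MHCC97H, KDR at 0.743 and 1.71 RPKM, and EGFL7 at 3.33 and 7.61 RPKM, so 3 of the 4 were at least 2-fold lower (1.34% of all genes). ESAM, the most abundant, went the other way at 36.9 RPKM in HCCLM3 and 24.8 RPKM in MHCC97H (list median -1.13, sums 44.7 RPKM in HCCLM3 and 41.9 RPKM in MHCC97H). The defining endothelial genes VWF and CDH5 were at 0.0601 and 0.0467 RPKM in HCCLM3 and 0.0483 and 0.0902 RPKM in MHCC97H, and ERG had no read in HCCLM3. Of 14 leukocyte markers 3 did (median 0.57, sums 80.2 RPKM in HCCLM3 and 54.9 RPKM in MHCC97H), nearly all of the sum being CD68, a lysosomal protein that epithelial lines also express, at 74.8 RPKM in HCCLM3 and 50.2 RPKM in MHCC97H. PTPRC, the leukocyte antigen CD45, was at 0.0723 RPKM in HCCLM3 and 0.0619 RPKM in MHCC97H, and CD3D and CD3E had no read in HCCLM3. Of 10 erythroid markers 0 did, with sums under 2 RPKM in both lines. Duct markers were the abundant exception. Of 12 cholangiocyte and duct markers 6 did (median 0.23, sums 1025 RPKM in HCCLM3 and 762.4 RPKM in MHCC97H). The keratin KRT19 was at 583 RPKM in HCCLM3 and 459 RPKM in MHCC97H, osteopontin (SPP1) at 365 and 245 RPKM, and the keratin KRT7 at 48.0 and 25.7 RPKM, all inside 2-fold. Their part in the other differences was not tested.

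The filter at 1 RPKM left out 7374 genes. Just inside it were SYCP3, MYCBP2, FAM105A, TMEM88 and ZNF717, and just outside it TMEM45B, FBXO15, FAM83E, FAM76A and FAM115C. A low gene enters this comparison through the line in which it is higher, so the counts past 2-fold and 4-fold depend on the filter.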

How the data were processed

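Polyadenylated mRNA and ribosome-bound mRNA of 3 hepatocellular carcinoma lines had been sequenced from pools of 3 cultures each, with an NEBNext kit, per the labels' protocols and the design text. For each library the authors deposited a read count and an RPKM per gene, genes without reads were absent from a table and set to 0. The deposited counts are whole numbers, and the deposited RPKM are these counts scaled by gene model length and by a library total of the authors, 129948939 for HCCLM3 mRNA and 142785469 for MHCC97H mRNA. The submitters' processing notes name hg19 and edgeR without their role. Not given in the sources used here are the aligner and its treatment of strand, of overlapping genes and of reads with several matches. The tables name the fractions by the letters A and C. The letter C, found among the titles in the word RNC alone, was taken for RNC-mRNA and A for mRNA, which the labels do not state.

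Log2 ratios of RPKM + 0.1, the filter at 1 RPKM in either mRNA library, sizes of 2-fold and 4-fold, and exact binomial 95% intervals of the counts were computed in Python 3.11.15 (pandas 2.3.3, scipy 1.17.1). With 1 library per line no test between the lines was run, and the calculations were tested on simulated data. TMM factors came from edgeR 4.0.16 in R 4.3.3. Of the genes compared 11332 matched a current or older RefSeq symbol on GRCh38.p14, which served for gene order and promoter sequences only, as hg19 differs from it. The genes to name were drawn by rule, and not every gene drawn is described. From the 4-fold genes these were the 20 highest, the 20 lowest and the 4-fold neighbours. Among genes at 100 RPKM they were the 5 highest and 5 lowest ratios. Each of 43 lists gave up to 4 members with the largest ratio, and either side of the filter gave 5 genes. Y-linked genes were left out. Further members of lists, such as HLA-C, MAGEA3, CTNNB1 and VEGFA, were named after their values were seen. The comparison, its members and the lists were chosen with earlier results of these data known. The block bound of 0.25 and the block genes were chosen after the values were seen. Alternatives were pseudocounts of 1 and 0.01 RPKM, no filter and a filter at 5 RPKM, rescaling to the median ratio, the upper quartile or TMM, the RNC-mRNA libraries, runs of 15 and 50 genes, and leaving out genes of the blocks.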

Additional observations from a re-analysis of the deposited data

How the results depend on the processing

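A pseudocount of 1 RPKM left 9 genes at least 4-fold higher and 8 lower in HCCLM3, and 76 and 79 past 2-fold, all among those reported. A filter at 5 RPKM left 11 and 11 past 4-fold and 62 and 55 past 2-fold. With no filter, 233 were at least 2-fold higher and 273 lower. Under the pseudocount of 0.01 RPKM, the 3 rescalings and without genes of the blocks, these counts stayed within 1.5 times. A pseudocount of 1 RPKM moved 126 of 194 ratios of named genes out of the range spanned by the reported ratio and its counting interval, rescaling to the upper quartile 36 of 196, to the median ratio 22 of 196, and TMM 5 of 199. The filter does not enter a gene's own ratio. The median of all genes moved by less than 0.03 over these settings. With no filter the list medians of cancer-testis genes (-0.0739) and endothelial markers (0.0283) changed sign, since members near 0 RPKM entered. That of antigen presentation (0.0943) did so without genes of the blocks, where most of its members lie. Runs of 15 genes put 1169 genes in blocks, 1094 of them shared with runs of 25, and runs of 50 put 1150, 1075 shared. These gave blocks on chromosomes 3, 6, 15 and 19 as well, runs of 15 added chromosome 21, and runs of 50 lost chromosome 7. No paired analysis was possible because each line has 1 library per fraction. Leaving out a replicate was not possible for the same reason. Depth limits genes such as LGALS2 and CSAG1, with 5 and 8 reads in HCCLM3.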
